A study of Homo sapiens with 11 samples.

Results

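The transcripts described here encode the machinery that brings proteins into mitochondria and keeps them folded: the subunits of the TOM and TIM translocases, the matrix processing peptidase, the HSP60 and HSP10 chaperonin and the proteases of the matrix and inner membrane. The members were the protein-coding genes whose symbol starts with TIMM or TOMM and a number, together with HSPD1, HSPE1, LONP1, CLPP, CLPX, AFG3L2, YME1L1, SPG7, HTRA2, PMPCA and PMPCB. They were 36 of the 58735 genes listed, and 35 had enough counts to be tested. Messenger RNA had been sequenced from HEK293T, a line derived from human embryonic kidney, in 11 libraries labelled as biological replicates: control (n = 3), siNAE1 (n = 3, 50 nM), siUBE2M (n = 3, 70 nM) and siURM1 (n = 2, 60 nM). The knockdown cells were harvested 48 h after transfection with Lipofectamine RNAiMAX, no stressor is named for these cells, and all groups carry the genotype of the line. Control libraries are labelled control siRNA, and the study's methods name a non-targeting siRNA as negative control, whose dose is not given in the sources used here. NAE1 is the regulatory subunit of the enzyme that activates NEDD8, UBE2M is a NEDD8 conjugating enzyme, and URM1 is the ubiquitin-like protein for which the study examined both as activating and conjugating enzymes.

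Nearly all mitochondrial proteins are made in the cytosol. Receptors of the TOM complex on the outer membrane recognise them, the TOM channel passes them on, small TIM chaperones guide hydrophobic precursors across the space between the membranes, and the TIM22 and TIM23 complexes insert carriers or pull presequence proteins into the matrix. There the processing peptidase cuts off the presequence, HSP60 and HSP10 help the protein fold, and ATP-dependent proteases remove what fails. When proteins accumulate unfolded in mitochondria, cells can raise chaperonin and protease transcripts together, a response known as the mitochondrial unfolded protein response.

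Total counts per library ranged from 11733163 to 16321391, and the targeted transcript was lower in its own knockdown, with a log2 fold change of -1.36 for NAE1, -3.98 for UBE2M and -1.80 for URM1. Of 6 genes listed for HEK293T, the filament genes VIM and NEFM reached the highest FPKM (31.4 to 72.7 and 15.6 to 43.1), and the kidney gene PAX2 had 0.688 to 3.13. Their sum was 77.3 to 82.7 in control and 102 to 141 in the knockdowns, mostly from filament genes, so it checks the line only weakly. The summed FPKM of marker lists of the HepG2 liver line and of endothelium did not exceed 0.347 and 0.033. The members took 0.420 to 0.430% of all counts in control, 0.474 to 0.493% in siNAE1, 0.412 to 0.435% in siUBE2M and 0.453 to 0.463% in siURM1. Transcripts encoded by the mitochondrial genome itself took 4.57 to 4.93%, 4.90 to 5.32%, 4.12 to 4.43% and 5.29 to 5.72% of counts in the same order of groups. All values come from whole cultures, in which fewer cells and less RNA per cell cannot be told apart.

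Each knockdown was compared with control to ask which of these transcripts changed with it, and the knockdowns were compared with each other to test whether they differed. Calls are edgeR quasi-likelihood tests with Benjamini-Hochberg adjustment over the 18368 genes tested, and a gene was called higher or lower at an adjusted p under 0.05. In siNAE1 cells 19 of 35 members were higher and 6 lower, beside 27.6% and 27.1% of all tested genes. In siUBE2M cells 8 were higher and 16 lower, beside 22.7% and 22.6% of all genes. The 8 higher calls became 5 without control replicate 1, siUBE2M replicate 1 or siUBE2M replicate 3, and the 16 lower calls became 10 without siUBE2M replicate 2. In siURM1 cells 12 were higher and 9 lower, beside 20.8% and 20.8%, and the 9 lower calls became 5 without siURM1 replicate 2. The median log2 fold change of the members was 0.21, -0.068 and 0.066, where that of all tested genes was -0.0021, 0.0075 and -0.021. The share of higher calls among called members was thus 76.0%, 33.3% and 57.1%, and with libraries scaled by their total counts alone it was 63.6%, 20% and 40%. That scaling moved the median of all genes in siNAE1 by -0.12 on the log2 scale and the median of the members to 0.090, -0.13 and -0.024, so the siURM1 median changed sign. It also ended the higher calls of TOMM20, TOMM22, TIMM50, YME1L1 and PMPCB in siNAE1, of TIMM17A, TIMM21, TIMM29 and TIMM50 in siUBE2M, and of PMPCB, SPG7, TIMM44 and TOMM22 in siURM1. Most changes were small. The study's threshold also asks for a change of 1 or more on the log2 scale in either direction, and 2 members passed it in siNAE1 (13.9% of all genes), 1 in siUBE2M (7.11%) and 1 in siURM1 (7.62%).

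**Figure D1:**
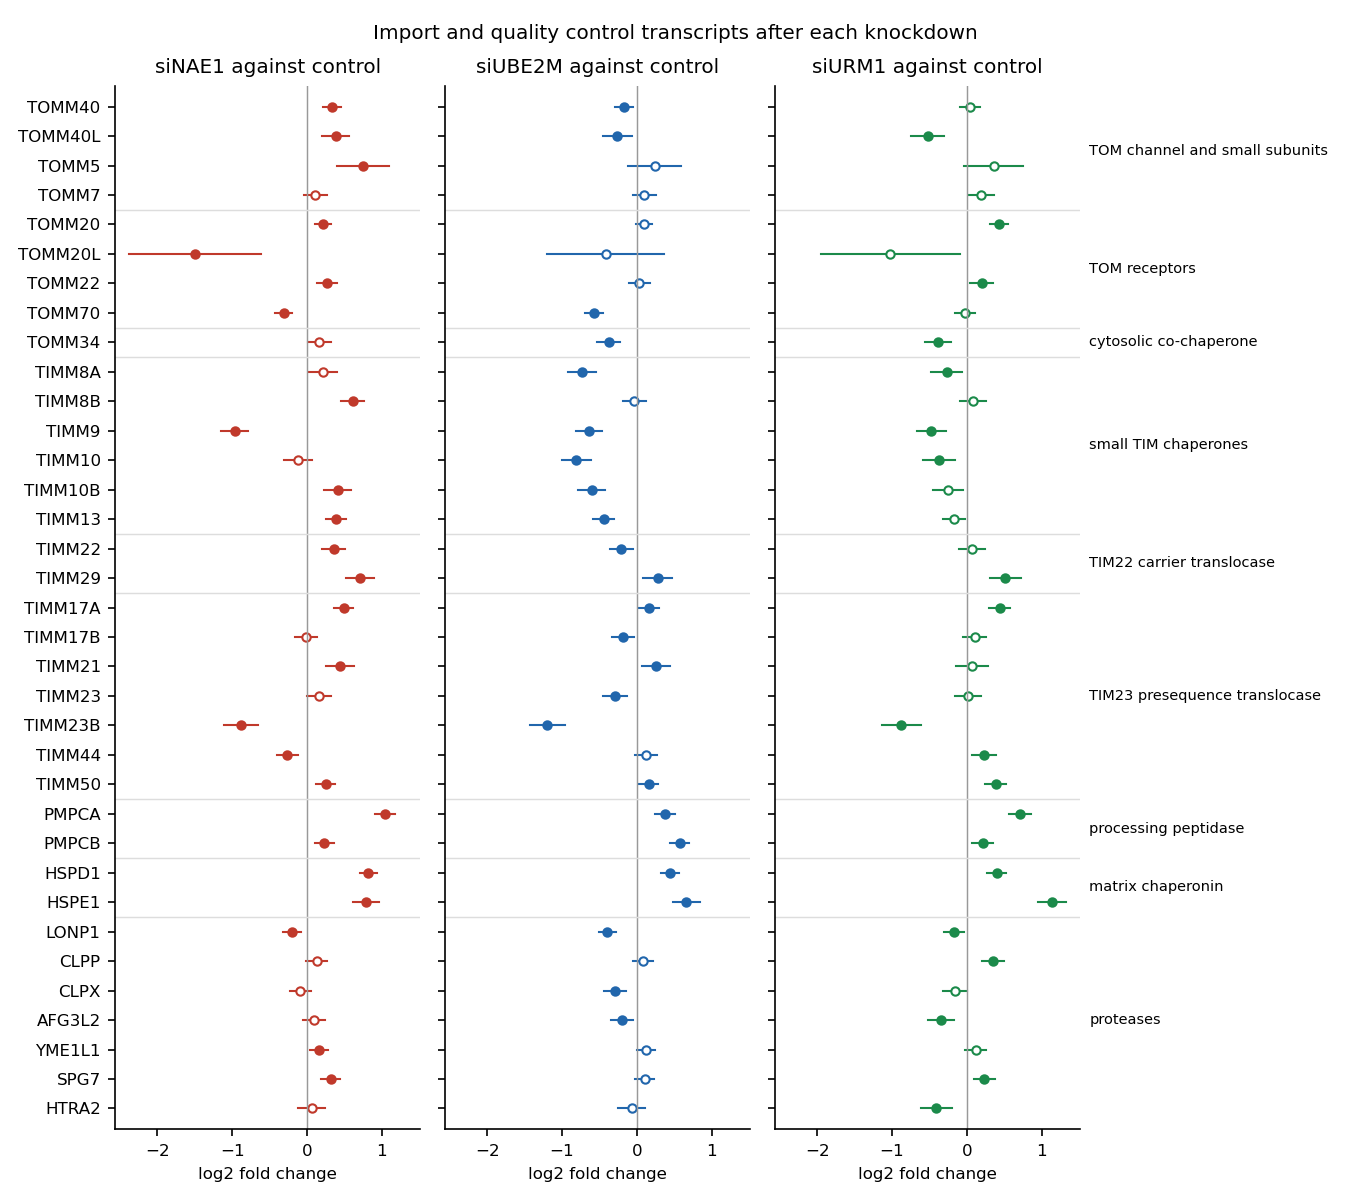
Log2 fold change against control of the 35 tested members (rows, ordered by role) in siNAE1, siUBE2M and siURM1 cells. Points are the edgeR estimates, bars their 95% confidence intervals, and filled points have an adjusted p under 0.05. The chaperonin and the processing peptidase sit to the right of 0 in every panel, whereas 5 of 6 small TIM chaperones are called lower in siUBE2M and 1 of 6 in siNAE1.

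Of the 35 tested members, 7 were higher in all 3 knockdowns (20%, beside 9.3% of all tested genes): HSPD1, HSPE1, PMPCA, PMPCB, TIMM17A, TIMM29 and TIMM50. A further 3 were lower in all 3 (8.57%, beside 9.62% of all genes): LONP1, TIMM9 and TIMM23B. The 3 comparisons share the control libraries, so these counts are not independent. With DESeq2 or RLE scaling, TIMM50 was not called in siUBE2M (adjusted p = 0.0563 and 0.0523). Calls in opposite directions occurred for 6 members (17.1%, beside 6.69% of all genes), and 18 were called in one direction in 1 or 2 knockdowns (51.4%, beside 48.4%). TOMM7, a small subunit of the TOM channel, was the 1 member called in none (2.86%, beside 26%). When each library was left out in turn, 3 members stayed higher in all knockdowns in every fit (HSPD1, HSPE1 and PMPCA) and 2 stayed lower (TIMM9 and TIMM23B).

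The deposited FPKM (fragments scaled to gene length and library size) divides by a listed gene length, which is 0.945 to 11.7 times that of the canonical GENCODE transcript, so levels are given on both lengths (mean ± SD, n = 3). In control cells HSPD1 had the highest level of the members on either length, with 162 ± 8.14 FPKM by listed length and 307 ± 15.4 rescaled to the canonical transcript. The receptor TOMM20 followed by listed length at 157 ± 5.82 FPKM, within the spread of HSPD1, but was lower on the canonical length at 169.9 ± 6.28, where TOMM7 at 189 ± 17.6 was between them and TOMM7 and TOMM20 overlapped within their spread. LONP1 ranked 5 on both lengths, with 61.4 ± 1.11 FPKM and 101 ± 1.82 on the canonical transcript. The paraplegin gene SPG7 had 3.88 ± 0.171 FPKM by its listed length of 36008 bases and 45.4 ± 2.00 by its canonical 3076, so its low FPKM follows from the length used. Low on both lengths were the poorly characterised receptor paralog TOMM20L, with 2.47 ± 0.511 FPKM and 2.53 ± 0.522, and the small TOM subunit TOMM5, with 1.18 ± 0.131 FPKM and 6.08 ± 0.678. Ratios of FPKM between genes below use the listed lengths, which set the size of a ratio but not its comparison between libraries. TOMM6 was listed at 0 counts in every library. Its canonical transcript shares 100% of its 100-base words with an overlapping listed gene on the same strand, which had 31 to 63 counts per library, so a count of 0 does not show that TOMM6 was not transcribed. TOMM5 shares 69.4% of its words with a read-through gene, and its counts are therefore uncertain as well.

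HSPD1 and HSPE1 encode the 2 parts of the chaperonin folding chamber, the HSP60 barrel and its HSP10 lid, and lie on opposite strands of chromosome 2 (HSPD1 at chr2:197486581-197516737 on the minus strand, HSPE1 at chr2:197499994-197503457 on the plus strand, GRCh38), where the listed span of HSPD1 contains that of HSPE1. Transcripts of both rose in every knockdown, and no knockdown library overlapped a control library for either gene. The HSPD1 promoter is shown because it held the only overlapping run of heat shock element pairs among the members, with the run in capitals. Sequences here are RefSeq promoters of GRCh38.p14, which cover 250 bases before to 50 after a gene's start and were listed for 32 of the 36 members.
HSPD1, chr2:197500062-197500090, minus strand, 250 to 222 bases before the start: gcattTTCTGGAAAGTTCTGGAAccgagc
Starts are those of the RefSeq entries. Further starts are annotated for HSPD1, so this stretch lies inside the listed spans of both genes, and all 29 bases are exonic in GENCODE transcripts of HSPD1. The run holds 2 matches to TTCNNGAA that overlap 1 match to GAANNTTC, both searched on both strands. TTCNNGAA was present in 7.74% and GAANNTTC in 6.77% of all 35116 promoters listed, and such a match describes the letters only.

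HSPD1 had 667, 728 and 687 CPM (counts scaled to library size by TMM) in the control libraries. It had 1175, 1303 and 1202 CPM in siNAE1, 941, 888 and 1002 CPM in siUBE2M and 883 and 947 CPM in siURM1. The siNAE1 libraries were the highest, above all other libraries, and siUBE2M and siURM1 overlapped. The log2 fold change was 0.82 (SE 0.060, adjusted p = 4.44e-13), 0.44 (SE 0.060, adjusted p = 3.13e-07) and 0.40 (SE 0.067, adjusted p = 1.09e-05) in siNAE1, siUBE2M and siURM1. Between knockdowns, siNAE1 exceeded siUBE2M by 0.38 (adjusted p = 4.07e-06) and siURM1 by 0.42 (adjusted p = 6.76e-06) on the log2 scale. For siUBE2M against siURM1 the log2 difference was 0.044, with a 95% interval of -0.087 to 0.18.

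The order of the groups was another for HSPE1. It had 41.8, 45.6 and 48.0 CPM in control, 72.5, 82.7 and 78.0 in siNAE1, 73.6, 59.9 and 80.8 in siUBE2M and 92.2 and 106 in siURM1, so that here the siURM1 libraries were the highest. The log2 fold change was 1.14 (SE 0.097, adjusted p = 3.75e-11) in siURM1, 0.79 (SE 0.090, adjusted p = 7.17e-09) in siNAE1 and 0.66 (SE 0.090, adjusted p = 3.27e-07) in siUBE2M. The log2 difference of siNAE1 from siURM1 was -0.35 (adjusted p = 0.00399), and that of siUBE2M from siURM1 was -0.48 (adjusted p = 2.01e-04), while the first of these calls was lost without siURM1 replicate 2 (adjusted p = 0.121). The ratio of HSPE1 to HSPD1 in FPKM was 0.224 and 0.241 in siURM1, above every other library. It was 0.135, 0.134 and 0.150 in control, 0.133, 0.136 and 0.139 in siNAE1 and 0.168, 0.145 and 0.173 in siUBE2M. Reads of HSPE1 can be split with other genes, since 31.7% of the 100-base words of its canonical transcript occur elsewhere, mainly in the read-through gene HSPE1-MOB4 (0 to 4 counts per library), whereas for HSPD1 this share is 4.29%.

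The matrix processing peptidase has a substrate-recognising subunit, PMPCA, and a catalytic subunit, PMPCB, and both were higher in every knockdown but to different degrees. PMPCA (chr9:136410570-136423761, plus strand) had 103, 103 and 101 CPM in control, 189, 227 and 218 in siNAE1, 134, 127 and 138 in siUBE2M and 173 and 160.1 in siURM1. The 4 groups did not overlap and stood in the order siNAE1, siURM1, siUBE2M and control. Its log2 fold change was 1.05 (SE 0.068, adjusted p = 2.29e-14) in siNAE1, 0.71 (SE 0.075, adjusted p = 3.28e-09) in siURM1 and 0.38 (SE 0.068, adjusted p = 2.81e-05) in siUBE2M, and all 3 differences between knockdowns passed the test. The log2 difference was 0.67 (adjusted p = 1.01e-09) for siNAE1 against siUBE2M, 0.34 (adjusted p = 4.32e-04) for siNAE1 against siURM1 and -0.33 (adjusted p = 8.09e-04) for siUBE2M against siURM1. PMPCB (chr7:103297422-103329511, plus strand) had 110.4, 117 and 113 CPM in control, 132, 138 and 131 in siNAE1, 163, 166 and 176 in siUBE2M and 126 and 137 in siURM1. Here siUBE2M was the highest group, with a log2 fold change of 0.57 (SE 0.063, adjusted p = 6.04e-09) against 0.23 (SE 0.063, adjusted p = 0.00218) in siNAE1 and 0.21 (SE 0.070, adjusted p = 0.0154) in siURM1. The siURM1 call was lost without siURM1 replicate 2 (adjusted p = 0.214). In FPKM, PMPCA was 0.686, 0.645 and 0.653 of PMPCB in the control libraries, 1.05, 1.21 and 1.23 in siNAE1, 0.603, 0.561 and 0.575 in siUBE2M and 1.01 and 0.857 in siURM1. The ratio was thus at least 0.857 in the siNAE1 and siURM1 libraries and at most 0.686 in the control and siUBE2M libraries.

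**Figure D2:**
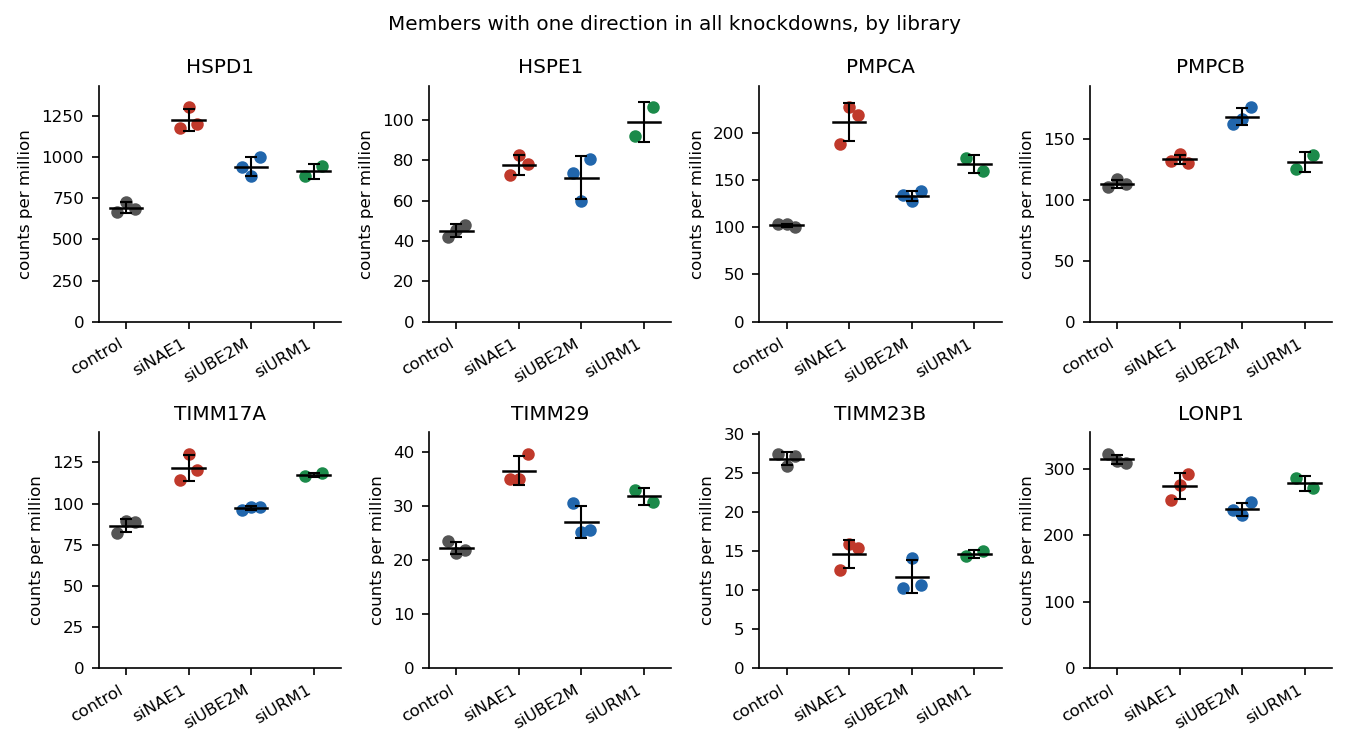
CPM after TMM scaling (y axis, from 0) of 8 of the members called in one direction in all knockdowns. Each point is a library, horizontal lines are group means and error bars are SD (n = 3, 3, 3 and 2). HSPD1, HSPE1, PMPCA, PMPCB, TIMM17A and TIMM29 lie above control in every knockdown, and TIMM23B and LONP1 lie below it.

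The 6 small TIM chaperones form ring-shaped hexamers in the space between the membranes (TIMM9 with TIMM10, TIMM8A with TIMM13), and TIMM10B ties them to the TIM22 complex. In siUBE2M cells 5 of the 6 were lower and none was higher (22.6% and 22.7% of all genes), with a median log2 fold change of -0.62. In siNAE1 cells 3 were higher and 1 was lower (27.6% and 27.1% of all genes, median of the 6 at 0.30), and in siURM1 cells 0 were higher and 3 lower (20.8% and 20.8% of all genes, median of the 6 at -0.26). The siURM1 calls of TIMM8A and TIMM10 depended on siURM1 replicate 2, without which their log2 fold changes were -0.18 and -0.31. Compared directly, siNAE1 exceeded siUBE2M in 5 of the 6 with a median log2 difference of 0.77, and the sixth, TIMM9, was lower. Over all tested genes 22.7% were higher and 21.6% lower in siNAE1 than in siUBE2M.

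TIMM10B (chr11:6481447-6484679, plus strand) showed the largest such difference. It had 35.1, 33.1 and 33.3 CPM in control, 49.0, 43.4 and 42.5 in siNAE1, 25.1, 21.7 and 19.9 in siUBE2M and 28.2 and 28.7 in siURM1. All siNAE1 libraries were above, and all siUBE2M and siURM1 libraries below, the control libraries. The log2 fold change was 0.41 (SE 0.090, adjusted p = 2.58e-04) in siNAE1, -0.61 (SE 0.095, adjusted p = 3.52e-06) in siUBE2M and -0.25 (adjusted p = 0.0535) in siURM1, where it missed the threshold, and siNAE1 exceeded siUBE2M by 1.02 (SE 0.095, adjusted p = 2.01e-10). This was the only member past the study's threshold in that comparison, which 7.84% of all genes passed. On the same strand, 13.2% of the exonic bases of TIMM10B overlap a gene with 0 to 1 counts per library. TIMM8A, whose loss causes the Mohr-Tranebjaerg deafness and dystonia syndrome (chrX:101345659-101349196, minus strand), had 34.5, 32.9 and 34.2 CPM in control, 39.7, 36.2 and 42.3 in siNAE1, 18.9, 23.0 and 19.0 in siUBE2M and 29.9 and 26.3 in siURM1. The siUBE2M libraries were the lowest, with a log2 fold change of -0.73 (SE 0.098, adjusted p = 2.23e-07), and siNAE1 exceeded them by 0.95 (SE 0.098, adjusted p = 1.92e-09). The siURM1 value of -0.27 (adjusted p = 0.0407) lost its call without any 1 control library, siUBE2M replicate 1 or siURM1 replicate 2 (adjusted p up to 0.338).

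TIMM9 and TIMM10 share a hexamer, and only TIMM9 was called in all 3 knockdowns. TIMM9 (chr14:58408494-58427614, minus strand) had 61.2, 70.8 and 70.3 CPM in control, 30.6, 38.0 and 34.9 in siNAE1, 42.1, 40.8 and 47.1 in siUBE2M and 44.6 and 52.6 in siURM1, and no knockdown library reached the control range. Its log2 fold change was -0.96 (SE 0.091, adjusted p = 1.25e-10), -0.64 (SE 0.088, adjusted p = 4.53e-07) and -0.47 (SE 0.099, adjusted p = 2.16e-04) in siNAE1, siUBE2M and siURM1. In siNAE1 TIMM9 was lower than in siURM1, with a log2 difference of -0.49 (adjusted p = 2.48e-04), and lower than in siUBE2M, at -0.33 (adjusted p = 0.00489), the latter call being lost without siNAE1 replicate 1 (adjusted p = 0.0517). TIMM10 (chr11:57528463-57530803, minus strand) had 30.9, 33.3 and 34.5 CPM in control, 27.4, 29.6 and 34.3 in siNAE1, 17.3, 19.3 and 19.5 in siUBE2M and 26.5 and 24.3 in siURM1. It was lowest in siUBE2M, at -0.81 (SE 0.10, adjusted p = 5.12e-08), while its siNAE1 libraries overlapped control (log2 fold change -0.11, adjusted p = 0.326). The siURM1 change of -0.37 (adjusted p = 0.00615) was not called without siURM1 replicate 2 (adjusted p = 0.0911).

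The remaining pair was TIMM8B and TIMM13. TIMM8B was higher in siNAE1 (log2 fold change 0.61, adjusted p = 5.60e-08), and its log2 fold change was -0.033 (adjusted p = 0.767) in siUBE2M and 0.086 (adjusted p = 0.464) in siURM1. TIMM13 was higher in siNAE1 by 0.39 (adjusted p = 1.07e-05) and lower in siUBE2M at -0.44 (adjusted p = 3.60e-06) on the log2 scale, and stood at -0.17 (adjusted p = 0.0767) in siURM1. Opposite-strand genes overlap 26.6% of the exonic bases of TIMM9, 30.1% of TIMM8B and 20.1% of TIMM13, and whether the counting used strand is not stated, so a part of these counts may belong to the other strand. Promoter matches in this family are shown for TIMM9, with the core of the NRF1 site (GCGCATGC or its reverse complement, in 3.05% of all promoters), and for TIMM10, with a heat shock pair, each in capitals.
TIMM9, chr14:58427641-58427670, minus strand: agacacaacacGCATGCGCgccaagaaact
TIMM10, chr11:57530793-57530822, minus strand: ttggtatttaaTTCCGGAAgcgagtttgaa
The stretches lie 139 to 110 and 68 to 39 bases before the start, and 11 bases of the TIMM10 stretch are exonic in a GENCODE transcript of TIMM10.

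**Figure D3:**
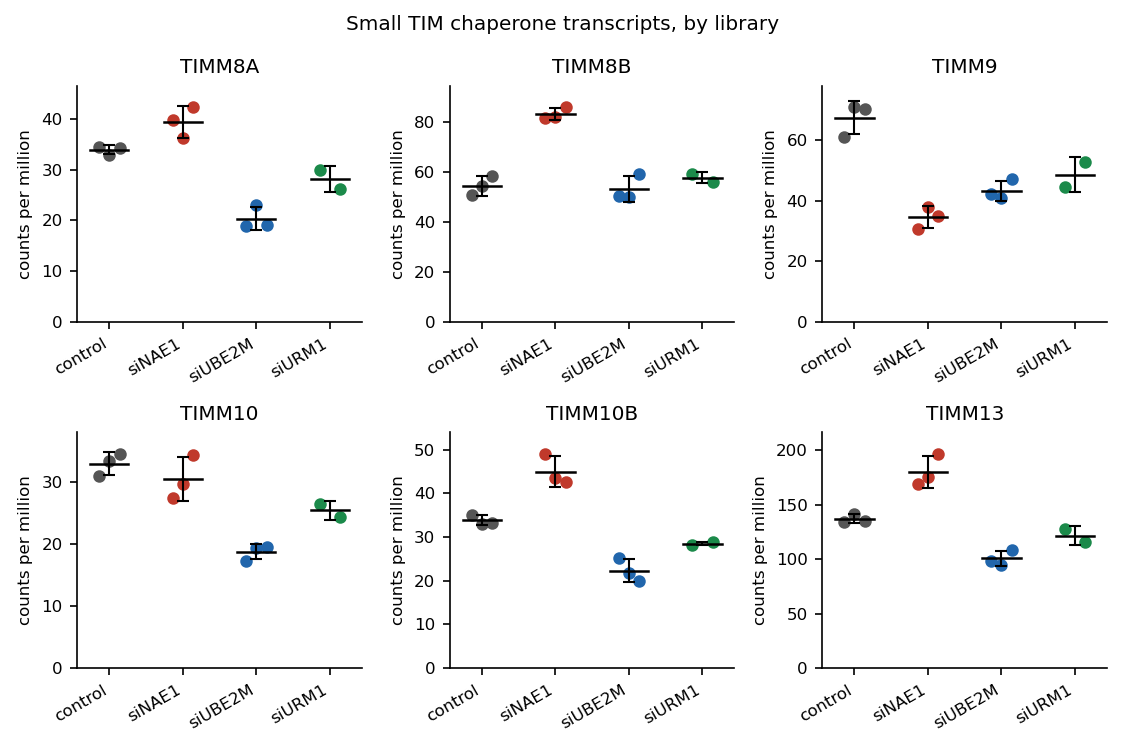
CPM after TMM scaling (y axis, from 0) of the 6 small TIM chaperone transcripts in each library (points), with group means (lines) and SD (error bars, n = 3, 3, 3 and 2). For TIMM8A, TIMM8B, TIMM10, TIMM10B and TIMM13 every siNAE1 library lies above every siUBE2M library. For TIMM9 every siNAE1 library lies below every siUBE2M library, and TIMM9 is below control in all knockdowns.

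TOM carries precursors across the outer membrane. Of its 4 tested channel and small subunits 3 were higher in siNAE1 and none lower (27.6% and 27.1% of all genes), 0 were higher and 2 lower in siUBE2M (22.7% and 22.6%), and 0 were higher and 1 lower in siURM1 (20.8% and 20.8%). Both lower calls in siUBE2M, of TOMM40 and TOMM40L, were lost without control replicate 1, control replicate 2 or siUBE2M replicate 2. The single lower call in siURM1, 25% of the 4, was near the share of all genes. TOMM40, the channel itself, was higher in siNAE1 by 0.34 (adjusted p = 2.35e-05) and lower in siUBE2M at -0.17 (adjusted p = 0.0257) on the log2 scale, and stood at 0.043 (adjusted p = 0.656) in siURM1. Its siUBE2M call was lost without any 1 control library, siUBE2M replicate 1 or siUBE2M replicate 2 (adjusted p up to 0.125), whereas siNAE1 exceeded siUBE2M by 0.51 (adjusted p = 5.05e-08). The paralog TOMM40L (chr1:161225939-161230744, plus strand) diverged more, with 33.0, 32.2 and 30.3 CPM in control, 40.9, 40.8 and 42.8 in siNAE1, 27.8, 22.3 and 29.7 in siUBE2M and 23.0 and 21.2 in siURM1. It was above control in every siNAE1 library and below it in every siUBE2M and siURM1 library, with log2 fold changes of 0.38 (SE 0.095, adjusted p = 9.27e-04), -0.26 (SE 0.097, adjusted p = 0.0277) and -0.52 (SE 0.11, adjusted p = 2.55e-04). The siUBE2M call was lost without control replicate 1, control replicate 2 or siUBE2M replicate 2 (adjusted p up to 0.308). The direct log2 difference of siNAE1 from siURM1 was 0.91 (adjusted p = 7.69e-08). Relative to TOMM40 in FPKM, TOMM40L was at 0.135 and 0.131 in siURM1, below every other library (0.160 to 0.216). An opposite-strand gene overlaps 20.1% of the exonic bases of TOMM40L, so a part of its counts may belong to the other strand. TOMM5 was higher in siNAE1 by 0.74 (adjusted p = 6.50e-04), from 72, 78 and 61 counts in control to 109, 92 and 78.

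The receptors TOMM20 and TOMM22, which bind presequences, and TOMM70, which binds carriers and their chaperones, moved differently. TOMM20 was higher in siNAE1 (log2 fold change 0.21, adjusted p = 0.00142) and in siURM1 (log2 fold change 0.42, adjusted p = 1.15e-06) and had a log2 fold change of 0.094 (adjusted p = 0.17) in siUBE2M. TOMM22 was higher in siNAE1 (log2 fold change 0.27, adjusted p = 0.00155) and in siURM1 (log2 fold change 0.20, adjusted p = 0.0387), where the call was lost without control replicate 1, control replicate 3 or siURM1 replicate 2 (adjusted p up to 0.302). TOMM70 was lower in siUBE2M and siNAE1, with log2 fold changes of -0.57 (SE 0.060, adjusted p = 2.48e-09) and -0.31 (SE 0.060, adjusted p = 4.51e-05), while its siURM1 value was -0.027 with a 95% interval of -0.16 to 0.10. The difference of siUBE2M from siURM1 passed the test (log2 difference -0.54, adjusted p = 9.29e-08). A heat shock pair (capitals) lies 236 to 229 bases before the start of TOMM70, within the range of the HSPD1 run (245 to 228). The stretch printed lies inside the listed span of TOMM70 (chr3:100363431-100401398). Whether such matches bear on any change was not tested.
TOMM70, chr3:100401307-100401336, minus strand: tctgcccttctTTCCTGAAggtagagggga
TOMM20L (chr14:58395916-58408701, plus strand) had 20, 26 and 29 counts in control, 8, 9 and 4 in siNAE1, 13, 23 and 14 in siUBE2M and 11 and 12 in siURM1. In siNAE1 it was lower, with a log2 fold change of -1.49 (SE 0.45, adjusted p = 0.00544), but 28.6% of its exonic bases are overlapped on the opposite strand, as it lies beside TIMM9, and which strand these few counts came from is not known. TOMM34, a cytosolic co-chaperone of precursors, was lower in siUBE2M (log2 fold change -0.38, adjusted p = 2.16e-04) and siURM1 (log2 fold change -0.38, adjusted p = 7.46e-04), the latter not without siURM1 replicate 1 (adjusted p = 0.089), and had a log2 fold change of 0.16 (adjusted p = 0.0771) in siNAE1.

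The TIM23 complex forms the presequence channel, and of its 7 members 3 were higher and 2 lower in siNAE1 (42.9% and 28.6%, beside 27.6% and 27.1% of all genes). In siUBE2M the numbers were 3 and 3 (42.9% each, beside 22.7% and 22.6%), and in siURM1 3 and 1 (42.9% and 14.3%, beside 20.8% and 20.8%). All 3 higher calls in siUBE2M were lost without control replicate 1 and also without siUBE2M replicate 3. The lower calls of TIMM17B and TIMM23 in siUBE2M were lost without siUBE2M replicate 2. The lower calls in siNAE1 were near the share of all genes, and with 7 genes these counts are a description only. TIMM17A and TIMM17B are alternative subunits of this channel. TIMM17A (chr1:201955491-201970661, plus strand) had 82.0, 89.4 and 88.6 CPM in control, 114, 130.1 and 120.4 in siNAE1, 95.9, 97.6 and 97.9 in siUBE2M and 117 and 118 in siURM1. It was higher, with log2 fold changes of 0.49 (SE 0.066, adjusted p = 1.80e-07), 0.17 (SE 0.067, adjusted p = 0.0422) and 0.44 (SE 0.073, adjusted p = 1.09e-05) in siNAE1, siUBE2M and siURM1. The siUBE2M call was lost without control replicate 1, siNAE1 replicate 3, any 1 siUBE2M library or siURM1 replicate 2 (adjusted p up to 0.168). TIMM17B had log2 fold changes of -0.012 (adjusted p = 0.906) in siNAE1 and 0.10 (adjusted p = 0.311) in siURM1, and was lower in siUBE2M at -0.19 (adjusted p = 0.0367), which did not hold without any 1 control library, siUBE2M replicate 1 or siUBE2M replicate 2 (adjusted p up to 0.212). The ratio of TIMM17A to TIMM17B in FPKM was 0.506, 0.554 and 0.526 in control, 0.792, 0.759 and 0.699 in siNAE1, 0.712, 0.678 and 0.637 in siUBE2M and 0.622 and 0.716 in siURM1, so every knockdown library lay above the control libraries.

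TIMM23B, a close paralog of the channel gene TIMM23, fell most in this complex. It lies at chr10:49942033-49974850 on the plus strand and had 27.4, 25.8 and 27.2 CPM in control, 12.5, 15.9 and 15.3 in siNAE1, 10.3, 14.1 and 10.6 in siUBE2M and 14.3 and 15.0 in siURM1. The log2 fold change was -0.88 (SE 0.12, adjusted p = 1.50e-07), -1.20 (SE 0.12, adjusted p = 8.70e-10) and -0.87 (SE 0.13, adjusted p = 2.25e-06), and in siUBE2M it passed the study's threshold. TIMM23 had log2 fold changes of 0.16 (adjusted p = 0.0895) in siNAE1 and 0.013 (adjusted p = 0.923) in siURM1 and was lower in siUBE2M at -0.29 (adjusted p = 0.00467), a call lost without siUBE2M replicate 2 (adjusted p = 0.0621). In FPKM, TIMM23B was 0.128, 0.112 and 0.127 of TIMM23 in control and 0.0512 to 0.0859 in the knockdown libraries. Of the 100-base words of the TIMM23B transcript 32.9% occur in other genes, 2.3% in TIMM23 itself, so its level is uncertain where reads were shared.

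**Figure D4:**
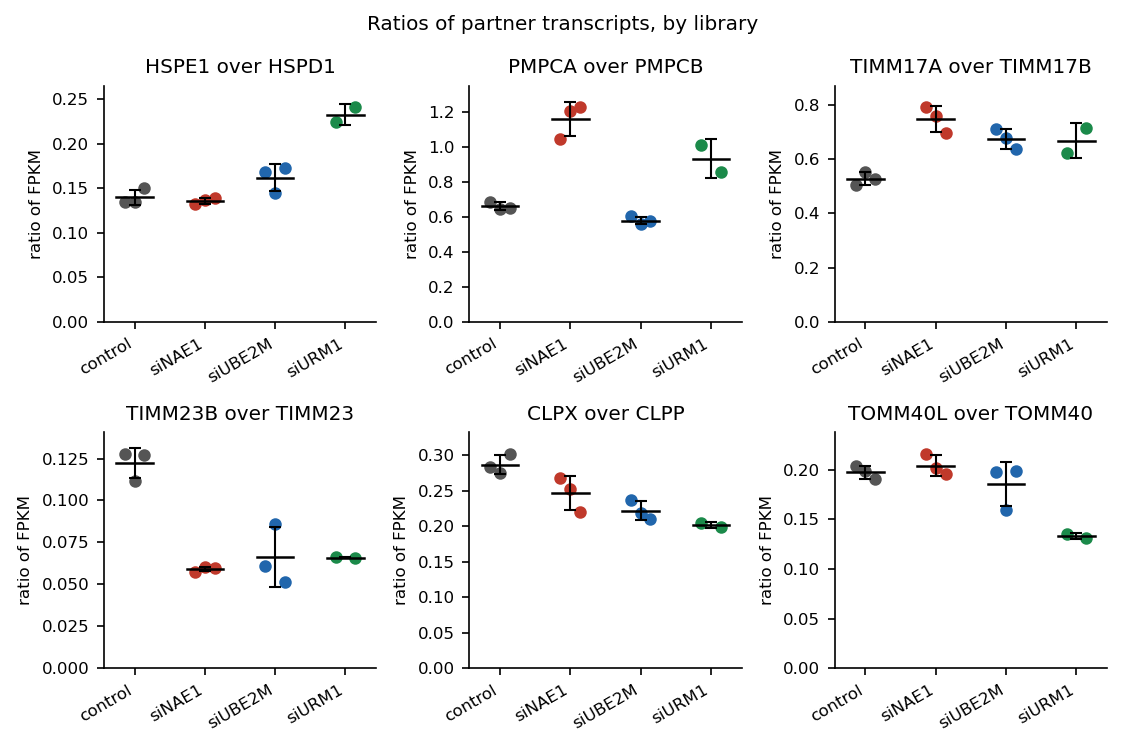
Ratio of FPKM between the transcripts of 6 partner or paralog pairs (y axis, from 0) in each library (points), with group means (lines) and SD (error bars, n = 3, 3, 3 and 2). HSPE1 over HSPD1 is highest in siURM1, PMPCA over PMPCB in siNAE1, and TIMM23B over TIMM23 is lower in every knockdown library than in control.

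Among the other TIM subunits, TIMM50, the receptor of the TIM23 complex, was higher in siNAE1 (log2 fold change 0.25, adjusted p = 0.00167), siUBE2M (log2 fold change 0.16, adjusted p = 0.0456) and siURM1 (log2 fold change 0.39, adjusted p = 5.60e-05). Its siUBE2M call was lost without control replicate 1 or 3, siNAE1 replicate 2 or 3, siUBE2M replicate 3 or either siURM1 library (adjusted p up to 0.258). TIMM44, which tethers mitochondrial HSP70 to the channel, was lower in siNAE1 (log2 fold change -0.26, adjusted p = 0.00324) and higher in siURM1 (log2 fold change 0.23, adjusted p = 0.0213). The siURM1 call did not hold without control replicate 3 or siURM1 replicate 1 (adjusted p up to 0.168), but the direct log2 difference of siNAE1 from siURM1 was -0.49 (adjusted p = 1.12e-05). TIMM21, which links TIM23 to TOM and the respiratory chain, was higher in siNAE1 (log2 fold change 0.44, adjusted p = 2.41e-04) and in siUBE2M (log2 fold change 0.25, adjusted p = 0.0307), the latter not without control replicate 1 or 3 or siUBE2M replicate 1 or 3 (adjusted p up to 0.118). In the TIM22 complex, which inserts carrier proteins, the metazoan subunit TIMM29 (chr19:10928733-10933535, plus strand) had 23.5, 21.4 and 21.8 CPM in control, 35.0, 35.0 and 39.7 in siNAE1, 30.6, 25.1 and 25.5 in siUBE2M and 32.9 and 30.7 in siURM1. TIMM29 was higher, with log2 fold changes of 0.71 (SE 0.097, adjusted p = 1.89e-07), 0.28 (SE 0.098, adjusted p = 0.02) and 0.52 (SE 0.11, adjusted p = 2.02e-04), and its siUBE2M call was lost without control replicate 2 or siUBE2M replicate 1 (adjusted p up to 0.155). The channel TIMM22 was higher in siNAE1 (log2 fold change 0.36, adjusted p = 2.39e-04) and lower in siUBE2M (log2 fold change -0.21, adjusted p = 0.0327). The latter call was lost without any 1 control library or siUBE2M replicate 1 or 2 (adjusted p up to 0.273). In TIMM22, siNAE1 exceeded siUBE2M by 0.57 (adjusted p = 5.89e-07).

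Of the 7 proteases 2 were higher and 1 lower in siNAE1 (28.6% and 14.3%, beside 27.6% and 27.1% of all genes), so the higher calls were near the share of all genes. In siUBE2M 0 were higher and 3 lower (42.9%, beside 22.6%), and in siURM1 2 were higher and 3 lower (28.6% and 42.9%, beside 20.8% and 20.8%). The siNAE1 calls of LONP1 and YME1L1 were lost without siNAE1 replicate 1. The siURM1 calls of SPG7, LONP1 and AFG3L2 depended on siURM1 replicate 2, without which their log2 fold changes were 0.18, -0.13 and -0.28. Those of LONP1 and HTRA2 depended on siURM1 replicate 1, without which they were -0.21 and -0.30. LONP1, the main soluble protease of the matrix (chr19:5691834-5720572, minus strand), had 323, 312 and 309.6 CPM in control, 253, 276 and 292 in siNAE1, 238, 231 and 250.2 in siUBE2M and 286 and 271 in siURM1. All knockdown libraries were below the control libraries, with log2 fold changes of -0.20 (SE 0.060, adjusted p = 0.00515), -0.39 (SE 0.060, adjusted p = 2.55e-06) and -0.18 (SE 0.068, adjusted p = 0.0346). The call was lost in siNAE1 without siNAE1 replicate 1 (adjusted p = 0.0558), and in siURM1 without any 1 control library, siUBE2M replicate 1 or 2 or either siURM1 library (adjusted p up to 0.257). The promoter of LONP1 is shown because it held 4 matches to the NRF1 core (capitals), more than any other member, in 3 places.
LONP1, chr19:5720633-5720662, minus strand: ctgaagccctGCGCATGCGCatcaatgagt
LONP1, chr19:5720562-5720591, minus strand: ctgaatcttgaGCATGCGCagacgaatccc
LONP1, chr19:5720459-5720488, minus strand: ctagagtctgaGCATGCGCatgttgtccgc
GENCODE exons cover 26 bases of the first stretch (of CATSPERD), 11 of the next and all 30 of the last (of LONP1). The same core was in the promoters of TIMM10B, TIMM9 and TOMM7, and whether it bears on any change was not tested.

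CLPP is the peptidase and CLPX the unfoldase of another matrix protease. CLPP was higher in siURM1 (log2 fold change 0.35, adjusted p = 4.42e-04) and had a log2 fold change of 0.13 (adjusted p = 0.113) in siNAE1 and 0.083 (adjusted p = 0.354) in siUBE2M. CLPX was lower in siUBE2M (log2 fold change -0.29, adjusted p = 0.0015) and had a log2 fold change of -0.090 (adjusted p = 0.307) in siNAE1 and -0.16 (adjusted p = 0.126) in siURM1, and the pair was called together in no knockdown. The ratio of CLPX to CLPP in FPKM was 0.283, 0.275 and 0.302 in control, 0.268, 0.252 and 0.220 in siNAE1, 0.237, 0.218 and 0.210 in siUBE2M and 0.205 and 0.199 in siURM1, so every knockdown library lay below the control libraries. AFG3L2 and SPG7 form the matrix-facing protease of the inner membrane. AFG3L2 was lower in siURM1 (log2 fold change -0.35, adjusted p = 0.00144) and siUBE2M (log2 fold change -0.20, adjusted p = 0.0343) and had a log2 fold change of 0.095 (adjusted p = 0.295) in siNAE1. SPG7 was higher in siNAE1 (log2 fold change 0.32, adjusted p = 1.01e-04) and siURM1 (log2 fold change 0.23, adjusted p = 0.00889) and had a log2 fold change of 0.11 (adjusted p = 0.187) in siUBE2M. The siURM1 calls of both were lost without siURM1 replicate 2 (adjusted p = 0.0541 and 0.127), and that of AFG3L2 in siUBE2M without control replicate 2 or 3 or siUBE2M replicate 2 or 3 (adjusted p up to 0.25). YME1L1, the protease facing the space between the membranes, was higher in siNAE1 (log2 fold change 0.16, adjusted p = 0.0286). That call was lost without control replicate 1 or 2 or siNAE1 replicate 1 (adjusted p up to 0.135). YME1L1 had a log2 fold change of 0.12 (adjusted p = 0.119) in siUBE2M and 0.12 (adjusted p = 0.186) in siURM1. HTRA2, a protease of the same space, was lower in siURM1 (log2 fold change -0.41, adjusted p = 0.00209), not without siURM1 replicate 1 (adjusted p = 0.0845), with log2 fold changes of 0.064 (adjusted p = 0.583) in siNAE1 and -0.068 (adjusted p = 0.579) in siUBE2M. Opposite-strand genes overlap 32.3% of its exonic bases.

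Tested against each other, siNAE1 was higher than siUBE2M in 22 members and lower in 3 (22.7% and 21.6% of all genes), with a median log2 difference of 0.26, where all tested genes had a median of -0.017. The 3 lower members were PMPCB, TIMM44 and TIMM9. Against siURM1, siNAE1 was higher in 13 members and lower in 6 (19.5% and 19.1% of all genes, 6.76% past the study's threshold and no member among them), and the 6 became 3 without siURM1 replicate 2. In turn, siUBE2M was higher than siURM1 in 2 members, PMPCB and HTRA2, and lower in 16 (16.7% and 18.3% of all genes, with 5.41% past the study's threshold and again no member). The last comparison rests on few libraries: without siURM1 replicate 1 the calls were 1 higher and 9 lower, and without siUBE2M replicate 3 the higher calls were also 1. Leaving out siURM1 replicate 2 took the members changed in siURM1 against control from 21 to 14. For orientation, mitochondrial ribosomal protein transcripts (77 tested) were called higher and lower 39 and 16 times in siNAE1 (50.6% and 20.8%, beside 27.6% and 27.1% of all genes), 14 and 32 in siUBE2M (18.2% and 41.6%, beside 22.7% and 22.6%) and 29 and 10 in siURM1 (37.7% and 13.0%, beside 20.8% and 20.8%). Nuclear-encoded respiratory chain subunits (84 tested) were called 49 and 7 (58.3% and 8.33%), 31 and 13 (36.9% and 15.5%), and 48 and 6 times (57.1% and 7.14%), beside the same shares of all genes.

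Beyond the members, 41 genes that work beside them were followed as 3 lists, of which 17 were higher and 11 lower in siNAE1, 9 and 14 in siUBE2M, and 16 and 6 in siURM1. The shares of all genes to set beside these lists are 27.6% and 27.1% in siNAE1, 22.7% and 22.6% in siUBE2M, and 20.8% and 20.8% in siURM1. Of the 19 import partners, 10 were higher and 4 lower in siNAE1, 5 and 6 in siUBE2M, and 8 and 4 in siURM1. HSPA9, the mitochondrial HSP70 that pulls precursors through TIM23, had 690.0, 737 and 714 CPM in control, 564, 587 and 536 in siNAE1, 422, 428 and 441 in siUBE2M and 594 and 603 in siURM1. Every knockdown library was below the control libraries, with log2 fold changes of -0.34 (SE 0.056, adjusted p = 3.54e-06), -0.73 (SE 0.056, adjusted p = 2.78e-12) and -0.25 (SE 0.062, adjusted p = 0.00127), the opposite direction to HSPD1 and HSPE1. SAMM50, the core of the outer membrane machinery that inserts barrel proteins, was higher, with log2 fold changes of 0.92 (adjusted p = 9.88e-12), 0.38 (adjusted p = 1.68e-04) and 0.85 (adjusted p = 1.05e-09). It had 45.8, 47.8 and 45.9 CPM in control, 80.0, 88.4 and 95.5 in siNAE1, 59.9, 56.5 and 65.0 in siUBE2M and 80.9 and 86.4 in siURM1. DNAJC15, a J protein of the import motor, had only 23, 19 and 26 counts in control, 9, 4 and 12 in siNAE1, 25, 16 and 19 in siUBE2M and 0 and 6 in siURM1. It was lower in siURM1 (log2 fold change -2.76, adjusted p = 0.00215), but not without siURM1 replicate 1 (adjusted p = 0.0748). DNLZ, a co-chaperone of HSPA9, had 1 to 13 counts per library and overlapped between control and every knockdown, though it was called in siNAE1 (log2 fold change 1.96, adjusted p = 0.0231), a call lost without control replicate 3 or siNAE1 replicate 1 or 2 (adjusted p up to 0.125).

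Of the 16 maturation and quality control genes, 4 were higher and 6 lower in siNAE1, 3 and 5 in siUBE2M, and 6 and 1 in siURM1. PHB, a prohibitin that rings inner membrane proteases, had 109, 114 and 101 CPM in control, 218, 237 and 247 in siNAE1, 154, 151 and 164 in siUBE2M and 231 and 225 in siURM1. It was higher, with log2 fold changes of 1.11 (SE 0.065, adjusted p = 1.77e-15), 0.54 (SE 0.065, adjusted p = 4.21e-08) and 1.08 (SE 0.071, adjusted p = 1.09e-13), whereas its partner PHB2 had log2 fold changes of 0.088, -0.012 and 0.064, none of them called. HSCB, a J protein of iron-sulfur cluster assembly, was lower in each knockdown, with log2 fold changes of -0.69 (adjusted p = 1.69e-06), -0.93 (adjusted p = 1.39e-08) and -0.81 (adjusted p = 1.73e-06). It had 26.7, 28.3 and 28.9 CPM in control, 16.6, 18.7 and 16.7 in siNAE1, 12.7, 15.0 and 16.3 in siUBE2M and 16.5 and 15.4 in siURM1.

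Of the 6 regulators of the mitochondrial stress response 3 were higher and 1 lower in siNAE1, 1 and 3 in siUBE2M, and 2 and 1 in siURM1. ATF4, the transcription factor of the integrated stress response, had 848, 894 and 813 CPM in control. It rose to 1289, 1397 and 1374 CPM in siNAE1 (log2 fold change 0.67, adjusted p = 2.39e-11) and to 1327, 1270.0 and 1421 CPM in siUBE2M (log2 fold change 0.65, adjusted p = 8.47e-11). In siURM1 it had 926 and 974 CPM and a log2 fold change of 0.16 (adjusted p = 0.0506). DDIT3, which encodes CHOP, fell from 40.8, 43.4 and 37.4 CPM in control to 14.4, 9.16 and 10.9 in siNAE1, 22.7, 19.3 and 22.8 in siUBE2M and 24.4 and 23.8 in siURM1. Its log2 fold changes were -1.82 (SE 0.12, adjusted p = 3.70e-14), -0.91 (SE 0.11, adjusted p = 3.90e-08) and -0.75 (SE 0.12, adjusted p = 9.02e-06). In siNAE1 it was lower than in both other knockdowns, with a log2 difference of -0.91 (adjusted p = 4.61e-07) from siUBE2M and -1.07 (adjusted p = 1.38e-07) from siURM1. ATF5, a transcription factor linked to the mitochondrial unfolded protein response, was higher in siNAE1 (log2 fold change 0.47, adjusted p = 5.37e-04) and lower in siUBE2M (log2 fold change -0.53, adjusted p = 4.28e-04), with a log2 fold change of 0.19 (adjusted p = 0.222) in siURM1. For ATF5 siNAE1 exceeded siUBE2M by 1.00 (adjusted p = 2.03e-08) on the log2 scale. EIF2AK1, the HRI kinase of the integrated stress response, was higher in siNAE1 (log2 fold change 0.34, adjusted p = 6.41e-06) and siURM1 (log2 fold change 0.24, adjusted p = 0.00272) and had a log2 fold change of 0.047 (adjusted p = 0.538) in siUBE2M. DELE1, which relays mitochondrial stress to that kinase, was higher in siURM1 (log2 fold change 0.20, adjusted p = 0.0332), not without control replicate 2 or either siURM1 library (adjusted p up to 0.171), and had log2 fold changes of -0.062 (adjusted p = 0.48) in siNAE1 and 0.12 (adjusted p = 0.159) in siUBE2M. HSF1, the heat shock transcription factor, was lower in siUBE2M (log2 fold change -0.23, adjusted p = 0.00705), not without control replicate 1 or siUBE2M replicate 1 (adjusted p up to 0.06). Its log2 fold changes were -0.099 (adjusted p = 0.232) in siNAE1 and 0.088 (adjusted p = 0.382) in siURM1. A match to the composite site of CHOP and ATF4, TGATGNAA, was found in the promoters of PMPCB and TIMM22 and in 3.62% of all promoters. Whether it bears on any change was not tested.
PMPCB, chr7:103297185-103297204, plus strand: aTTGCATCAggttacctttc
TIMM22, chr17:997036-997065, plus strand: cgaatctgccgTTGCATCAcagtggctagt
The capitals mark the reverse complement of the site, 250 to 231 and 93 to 64 bases before the start for the stretches as printed. PMPCB was called higher in all knockdowns, while TIMM22 was called higher in siNAE1 and lower in siUBE2M. The siURM1 call of PMPCB and the siUBE2M call of TIMM22 were lost when single libraries were left out.

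**Figure D5:**
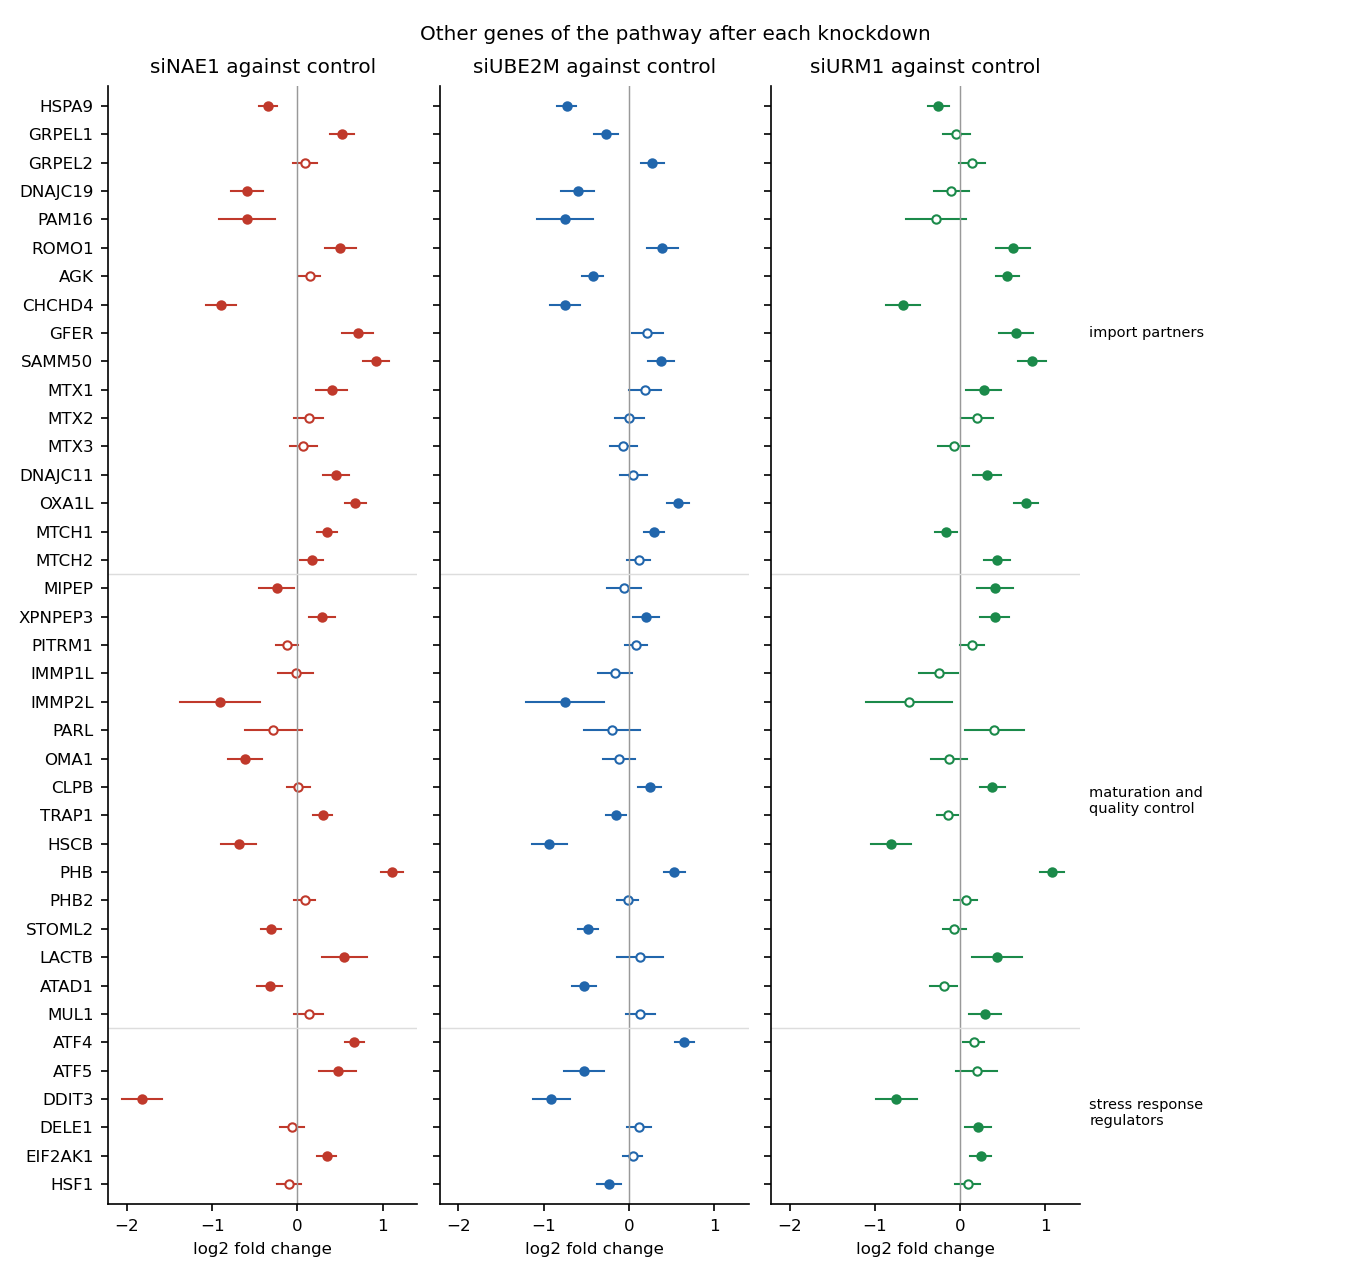
Log2 fold change against control of 39 of the 41 other genes of the pathway, by list, in siNAE1, siUBE2M and siURM1 cells; DNAJC15 and DNLZ, which have few counts, are left out. Points are edgeR estimates, bars 95% confidence intervals, and filled points have an adjusted p under 0.05. HSPA9, HSCB and DDIT3 lie below 0 and PHB and SAMM50 above 0 in every panel.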

How the data were processed

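Poly(A) RNA of HEK293T cells was sequenced by Novogene as strand-specific, paired-end libraries. Per the submitters' processing notes, reads were trimmed with fastp, aligned to GRCh38 with HISAT2 2.0.5 and counted per gene with featureCounts 1.5.0-p3. The authors deposited whole-number counts without normalization and FPKM values, which divide those counts by the gene length given in the table. The annotation version and the strand setting are not given in the sources used here.

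Counts were fitted in R 4.3.3 with edgeR 4.0.16: filterByExpr, TMM, and one quasi-likelihood model with 4 groups, 11 libraries and Benjamini-Hochberg adjustment over 18368 genes, without a fold change threshold. Two-sided tests were made for 6 comparisons. CPM values used TMM library sizes. FPKM served levels and ratios between genes, and levels were also rescaled to canonical transcript lengths, an alternative chosen after seeing the data. Floors were 3 counts per library and cover counting error only. Promoters were RefSeq sequences of GRCh38.p14, and shared words were counted in GENCODE transcripts. The code was tested on simulated data. Plots were drawn with matplotlib 3.10.9 in Python 3.11.15, from tables made with pandas 2.3.3.

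The members, the pathway lists and the tests were chosen with earlier results of these data known. Values in every library were given for HSPD1 and HSPE1, for members past the study's threshold in any comparison, for members called in one direction in all 3 knockdowns with a change of at least 0.4 on the log2 scale in one of them, and for the 3 highest and 3 lowest members of each knockdown. LONP1 was added after its values were seen. Of the other pathway genes, HSPA9, those past the threshold and the 2 highest and 2 lowest of each knockdown were named, and PHB2, as the partner of PHB, and ATF5, EIF2AK1, DELE1 and HSF1 were added after their values were seen. Alternatives were RLE, upper-quartile and total-count scaling, no filter or at least 10 counts in every library, a replicate block, 2 groups per fit, DESeq2 1.42.0, the study's fold change threshold and leaving out each library.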

Additional observations from a re-analysis of the deposited data

Results flagged for a closer look

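The results below are members for which 2 knockdowns were called in opposite directions against control and also differed from each other in a direct edgeR quasi-likelihood test (adjusted p under 0.05). Groups of 2 or 3 libraries were not examined for outlying samples.

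The largest difference among them was between siNAE1 and siUBE2M. TIMM10B, the small TIM that ties its family to the TIM22 complex, was higher in siNAE1 by a log2 difference of 1.02 (adjusted p = 2.01e-10). For TIMM13, the partner of TIMM8A, the difference was 0.84 (adjusted p = 1.88e-11). For TIMM22, the carrier channel, it was 0.57 (adjusted p = 5.89e-07), and for the outer membrane channel TOMM40 it was 0.51 (adjusted p = 5.05e-08). Against control, TIMM10B, TIMM13, TIMM22 and TOMM40 were at 0.41, 0.39, 0.36 and 0.34 in siNAE1 and at -0.61, -0.44, -0.21 and -0.17 in siUBE2M on the log2 scale. The lower calls of TIMM22 and TOMM40 against control in siUBE2M were lost when single libraries were left out, whereas the direct differences were called in every such fit.

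TOMM40L, the paralog of TOMM40, was higher in siNAE1 than in siUBE2M by 0.64 (adjusted p = 1.81e-06) and than in siURM1 by 0.91 (adjusted p = 7.69e-08) on the log2 scale. TIMM44, the tether of mitochondrial HSP70, had a log2 difference of -0.49 (adjusted p = 1.12e-05) between siNAE1 and siURM1, with the lower value in siNAE1. Against control, TOMM40L was at 0.38, -0.26 and -0.52 in siNAE1, siUBE2M and siURM1, and TIMM44 was at -0.26 in siNAE1 and 0.23 in siURM1. The siUBE2M call of TOMM40L and the siURM1 call of TIMM44 were lost without single libraries, and the direct differences were called in every fit that left out a library.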

How the results depend on the processing

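The number of members called against control was 25 of 35 in siNAE1, 24 in siUBE2M and 21 in siURM1. It stayed between 22 and 25, 20 and 24, and 19 and 23 under other scalings, filters, DESeq2, 2 groups per fit and the replicate block. The study's fold change threshold left 2, 1 and 1, and between knockdowns 0 (siNAE1 against siURM1), 0 (siUBE2M against siURM1) and 1 (siNAE1 against siUBE2M), since most changes were small. Leaving out 1 library gave 24 to 26, 17 to 24 and 14 to 23 called members against control. Between knockdowns it gave 16 to 19 for siNAE1 against siURM1 (19 with all libraries), 10 to 18 for siUBE2M against siURM1 (18) and 22 to 26 for siNAE1 against siUBE2M (25). The lowest value for siUBE2M against siURM1 was without siURM1 replicate 1. For counts over all tested members, libraries whose removal moved a count of higher or lower members by over 1.5 times are named beside those counts. For the lists within the members, lost calls are described by gene or beside the list. This was not done for the counts of the other pathway genes, mitochondrial ribosomal proteins or respiratory chain subunits. Against control, 23, 14 and 11 of the called members stayed called in every fit that left out a library. Deviations from the group means correlated at -0.066 to 0.079 over 15 pairs of libraries with the same number. Over 30 other pairs they correlated at -0.10 to 0.073. Deviations within a group cancel out, so these values are tied to each other and cannot show whether the samples were paired. With a replicate block 25, 24 and 21 members were called against control, and the calls of LONP1 (adjusted p = 0.0730) and TIMM8A (adjusted p = 0.0604) in siURM1 were lost, as were those of DELE1 in siURM1 and of MIPEP, MTCH1 and UBE2M in 1 comparison each. The block added 9 calls, among them TIMM10B, TOMM7 and ATF4 in siURM1. With DESeq2 the calls of TIMM50 (adjusted p = 0.0563) and TIMM21 (adjusted p = 0.0632) in siUBE2M and of TIMM8A in siURM1 (adjusted p = 0.0689) were lost. Results were compared over 79 genes (the tested members, the other pathway genes and the targeted genes), 6 comparisons and all settings. Of these, 287 calls were lost, 123 were gained and no called direction reversed. The other 8571 results stayed called in the same direction or stayed uncalled. For uncalled results the direction was not compared. Levels in control depended on the length behind FPKM: SPG7 ranked 33 of 36 by listed length and 17 by canonical transcript, an alternative chosen after seeing the data. Apart from fewer libraries or genes in a fit, the cause was not tested. With 2 siURM1 libraries, calls against this group are the least precise, and genes with few counts, such as TOMM20L, DNAJC15 and DNLZ, are measured least well.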
